A study of Drosophila melanogaster with 3 samples.

Results

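Mitochondrial ribosomal protein genes encode the proteins of the ribosome that works inside mitochondria, and were read here for binding of the transcription factor Ewg. Members were the protein-coding genes of the Ensembl annotation whose symbol starts with mRpL (large subunit) or mRpS (small subunit). There were 73 members among 13945 protein-coding genes, 47 of the large and 26 of the small subunit. Binding was measured by chromatin immunoprecipitation with an antibody against GFP, followed by sequencing, in whole embryos of Drosophila melanogaster of both sexes, aged 0 to 14 hours. All embryos came from 1 transgenic line that stably carries erect wing (ewg) joined to eGFP at its C-terminal end, and chromatin was sonicated to 200 to 800 bp. The labels give 3 biological replicates of 1 group, so the design holds no contrast between samples and no p-value is given. Most counts and medians are set beside the same over all genes or all peaks. Neither the promoter that drives the fusion nor the state of the untagged ewg gene is given in the sources used here. In whole embryos, binding in few cells and weak binding in many cells cannot be told apart.

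Mitochondria keep a genome of their own, which codes for a few subunits of the respiratory chain. Those subunits are made by the mitochondrial ribosome, whose RNAs come from the mitochondrial genome but whose proteins are all encoded in the nucleus and imported. Ewg is the fly homologue of the vertebrate factor NRF-1, which is known in mammals for activating nuclear genes of respiration and mitochondrial function; in the fly, Ewg is known for its roles in neurons and flight muscle. A divergent promoter is a stretch of DNA from which a pair of genes on opposite strands are transcribed away from each other.

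The DNA that carries the strongest summits (the highest point of a peak) at 6 members is given below, on dm6, because these summits mostly lay between the starts of a member and of a second gene. Each run is read 5′ to 3′ on the strand of the member and holds no annotated exon. Capitals mark the summit with 5 bases on either side. The first 5 runs reach from the base after the partner's start to the base before the member's start, and the last holds 60 bases on either side of the summit. 
mRpS10 and Art3 (chr3R:15229409-15229664, plus strand): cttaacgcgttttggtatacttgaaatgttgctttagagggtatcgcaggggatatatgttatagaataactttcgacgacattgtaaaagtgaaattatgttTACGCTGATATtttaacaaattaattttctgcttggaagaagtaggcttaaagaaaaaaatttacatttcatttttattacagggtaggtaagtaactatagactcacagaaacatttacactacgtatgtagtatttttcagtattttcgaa
mRpL24 and betaggt-I (chr2L:4945362-4945578, minus strand): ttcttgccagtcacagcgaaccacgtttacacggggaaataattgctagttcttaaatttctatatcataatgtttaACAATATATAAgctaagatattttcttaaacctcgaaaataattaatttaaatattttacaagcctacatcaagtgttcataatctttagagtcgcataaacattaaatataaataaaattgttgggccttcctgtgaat
mRpS2 and Mon1 (chr2L:4850420-4850640, minus strand): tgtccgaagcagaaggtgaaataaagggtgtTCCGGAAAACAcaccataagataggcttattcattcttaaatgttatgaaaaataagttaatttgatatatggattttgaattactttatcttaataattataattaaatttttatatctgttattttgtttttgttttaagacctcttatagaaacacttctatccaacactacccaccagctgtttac
mRpL21 and rept (chr3L:19255062-19255339, minus strand): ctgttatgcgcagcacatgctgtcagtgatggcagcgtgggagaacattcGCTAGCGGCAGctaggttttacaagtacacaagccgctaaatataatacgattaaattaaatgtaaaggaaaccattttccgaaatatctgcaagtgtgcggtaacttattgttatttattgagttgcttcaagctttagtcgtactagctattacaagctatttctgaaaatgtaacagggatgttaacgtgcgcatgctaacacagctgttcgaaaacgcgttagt
mRpL2 and FoxK (chr3L:11120784-11120846, plus strand): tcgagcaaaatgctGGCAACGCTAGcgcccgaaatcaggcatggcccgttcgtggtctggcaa
mRpS23 (chr2L:13835402-13835522, minus strand): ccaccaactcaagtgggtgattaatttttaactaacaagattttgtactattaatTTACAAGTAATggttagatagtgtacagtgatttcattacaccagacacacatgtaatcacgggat
The share of G and C in these runs was 30.1% at mRpS10, 28.6% at mRpL24, 28.1% at mRpS2, 40.3% at mRpL21, 58.7% at mRpL2 and 33.1% at mRpS23. Within 100 bp of the summit the median was 35.8% over 35 peaks at members and 40.3% over all 3277 promoter peaks.

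Of the 73 members, 33 (45.2%) had a summit of the authors' optimal peak set within 500 bp of a transcript start, and are called bound. The same held for 3679 of 13945 protein-coding genes (26.4%). The optimal set held 6793 peaks, of which 35 lay at members, since mRpL35 and mRpL53 each had a pair of summits. Counted within 250 bp, 27 members (37.0%) and 21.8% of all genes were bound. Within 1000 bp these became 34 members (46.6%) and 30% of all genes. With the 3396 strongest optimal peaks alone, 20 members (27.4%) and 15.8% of all genes remained bound. In each of these readings the share of members was above the share of all genes.

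The members also differed from other genes in how they are arranged. A protein-coding gene on the opposite strand, transcribed away and starting within 1000 bp, lay beside 56 of 73 members (76.7%) and beside 4648 of all genes (33.3%). Among genes with such a divergent partner, 31 of 56 members (55.4%) and 41.7% of all genes were bound. Among genes without one, 2 of 17 members (11.8%) and 18.7% of all genes were bound. If members had the all-gene rate in each of these classes, their own mix of classes would give 36.3%, or 26.5 of 73 genes, against the 33 counted. With partners counted within 500 bp, 29 of 51 members (56.9%) and 45.6% of all genes with a partner were bound, and 4 of 22 (18.2%) against 20% without one. So the higher share of members was seen in the genes with a partner, and the difference was not tested. The distance between the divergent starts had a median of 288 bp over the 56 members and 302 bp over all 4648 genes.

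**Figure D1:**
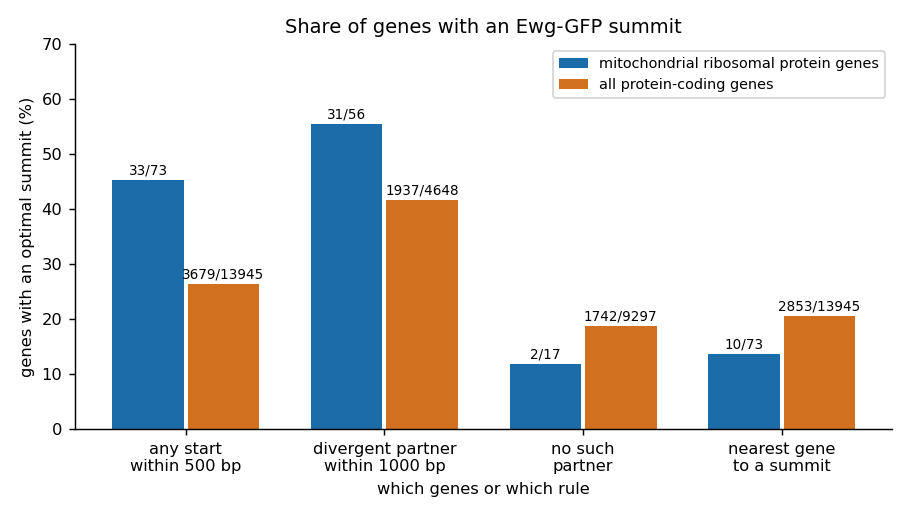
Share of genes with an optimal summit, in percent, for members (blue) and all protein-coding genes (orange); the numbers over the bars are genes counted out of genes in the class. Members lie above all genes for any start (45.2% against 26.4%) and with a divergent partner (55.4% against 41.7%), and below them without a partner (11.8% against 18.7%) and when only the gene nearest to a summit is counted (13.7% against 20.5%).

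The summit was usually closer to the neighbour than to the member. Counting for each summit only the gene whose start is nearest, 10 of 73 members (13.7%) and 20.5% of all genes had a summit. Among bound genes, the gene itself was nearest in 10 of 33 members (30.3%) and in 77.5% of all bound genes. Among bound genes with a divergent partner the shares were 25.8% (8 of 31) and 61.6%. The 10 members were mRpL4, mRpL16, mRpL23, mRpL34, mRpL41, mRpL53, mRpS6, mRpS11, mRpS14 and mRpS22, and mRpL53 shares its start with CG33155. At 31 of the 33 bound members another protein-coding gene also started within 500 bp of the summit. At those 31 the summit lay a median of 168 bp from the member's start and 97 bp from the other start. Of the 35 peaks at members, 33 (94.3%) had more than 1 gene within 500 bp, against 32.1% of all promoter peaks. Read with the summit of each replicate list in turn, the member was nearest in 10 of 30 members measured in replicate 1, in 8 of 33 in replicate 2 and in 12 of 30 in replicate 3.

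Most summits sat upstream of the member and nearer the partner's end of the shared promoter. These positions were counted at members only, with no share over all bound genes to set beside them. In 30 of 33 bound members the summit was upstream of the member's start, and in 24 of 33 it was intergenic. Of the 31 with a divergent partner, 24 had the summit between the starts, and 23 had it past the midpoint towards the partner. Those 23 are the bound members with another start nearer than their own, so this count restates the one by nearest gene. The neighbours nearest to these summits have varied roles. They include Mon1, of the complex that activates the Rab7 GTPase, the cell cycle kinase Cdk1, the pseudouridine synthase Nop60B, the Brahma complex subunit Snr1, Tudor-SN and CtIP, which acts in DNA end resection. Others have a mitochondrial role: Taz, the tafazzin that remodels cardiolipin, shares its promoter with mRpL18, and Mitofilin, of the complex that shapes the cristae, with mRpL35. The summit stood 156 bp from the Taz start and 176 bp from the mRpL18 start, and 120 bp from Mitofilin and 333 bp from mRpL35 at the stronger of its summits. Optimal peaks often had a fixed width of 424 bp (15 of 35 at members, 1328 of 3277 at all promoters). The matched summit of a replicate list was a median of 17 bp, and at most 84 bp, from the optimal summit at members. Over all promoter peaks the median was 12 bp. Only summits within 100 bp were matched, which caps these distances. Such shifts can change which start is nearest. At 10 of the 33 bound members the summit of at least 1 replicate list gave another answer than the optimal summit, a count made at members only. At mRpL16, mRpL34, mRpS14 and mRpS22 the member was no longer nearest. At mRpL2, mRpL37, mRpL52, mRpS10, mRpS16 and mRpS21 it became nearest. At mRpL2, for example, the summit of replicate 2 lay 26 bp from its own start and 38 bp from the other.

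**Figure D2:**
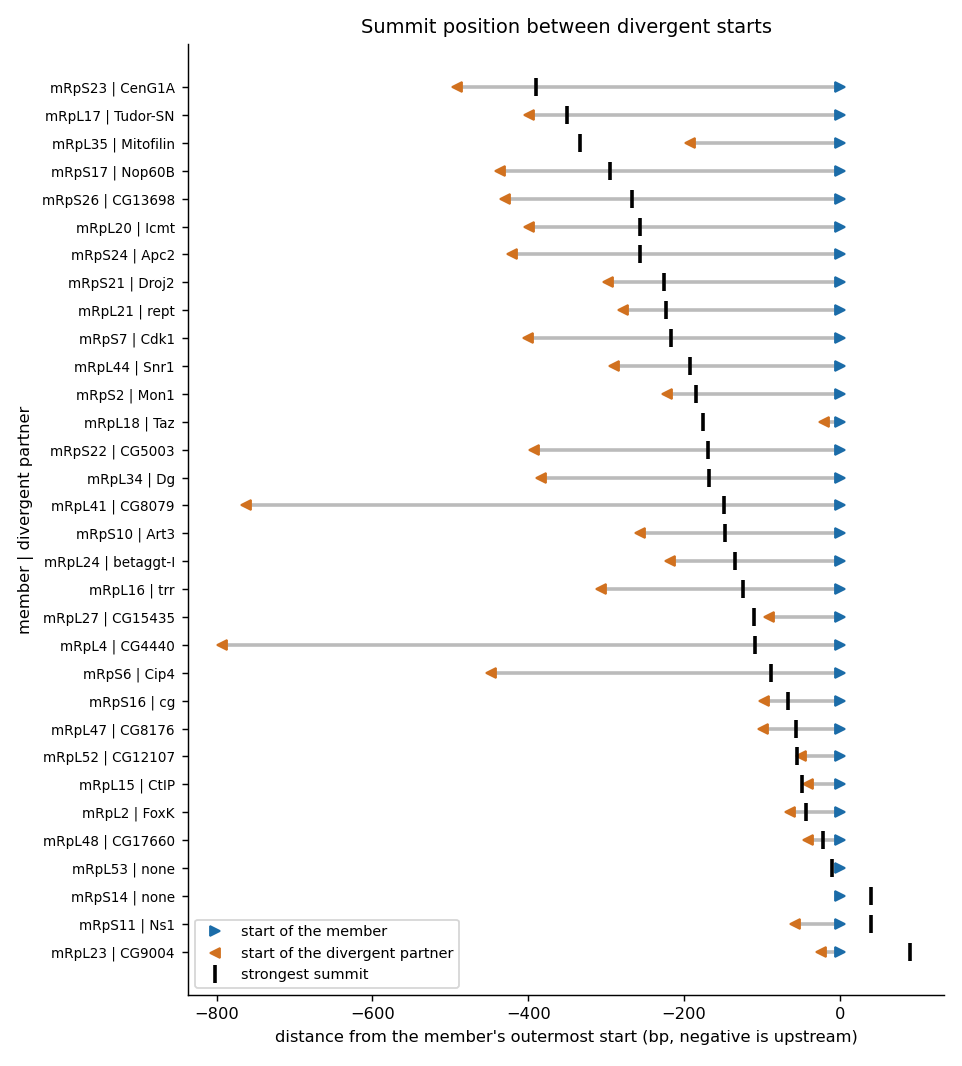
Position of the strongest summit (black bar) at 32 of the 33 bound members, with the member's outermost start at 0 (blue triangle) and the start of its divergent partner (orange triangle), in bp, negative upstream. Of all 31 bound members with a partner, 24 have the summit between both starts and 23 have it past the midpoint on the partner's side, 1 of them not shown. At mRpL23, mRpS11 and mRpS14 it is downstream of their start. The same positions were not counted over all bound genes.

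Relative signal is the authors' peak signal in a replicate divided by the median of that replicate over the 5852 optimal peaks found in all 3 replicate lists, so 1 is a median peak. The highest mean among members was at mRpL41, a large-subunit protein with no bacterial counterpart. The deposited signals there were 789.0, 812.0 and 762.7 in replicates 1 to 3, against list medians of 81.4, 124.0 and 84.1. This gave relative signals of 9.69, 6.56 and 9.07, a mean of 8.44 ± 1.66 (SD, n = 3). Replicates 1 and 3 were close and replicate 2 was lower. The peak (2R, 15217573 to 15217935) ranked 34 of 6793, with its intergenic summit at 15217766, 149 bp upstream of the nearest mRpL41 start. No other gene started within 500 bp, and the divergent partner CG8079 began 762 bp from the outermost mRpL41 start.

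Next was mRpS10, a small-subunit protein of the bacterial S10 family, which shares its promoter with the arginine methyltransferase gene Art3. Its relative signals were 9.25, 5.89 and 9.72 (8.29 ± 2.09, SD, n = 3), and the peak (3R, 15229329 to 15229737) ranked 38. Its mean differed from that of mRpL41 by less than either SD. The summit at 15229517, in capitals in the first run above, lay 109 bp from Art3 and 148 bp from mRpS10. At mRpS23, another protein without a bacterial counterpart, the values were 6.70, 5.81 and 8.03 (6.85 ± 1.12, SD, n = 3; rank 72). Its summit was 390 bp from its own start and 102 bp from CenG1A. These 3 members were the ones among the 100 strongest optimal peaks.

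At mRpL23, whose bacterial counterpart sits at the exit of the ribosome's peptide tunnel, the relative signals were 6.2, 4.0 and 5.45 (5.21 ± 1.12, SD, n = 3). The summit was 64 bp downstream of the nearest mRpL23 start, within its UTR, and 114 bp from CG9004. At mRpL53 they were 5.05, 4.81 and 5.19 (5.02 ± 0.193, SD, n = 3). Relative to the mean, this SD was the smallest among the members measured in 3 replicates. That summit lay 10 bp from the start of mRpL53 inside an intron of AGO1, which encodes an Argonaute protein. A second summit of the same interval, in the coding exon of mRpL53, reached 2.52, 3.28 and 2.86 (2.89 ± 0.378, SD, n = 3).

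The next 5 members were a group of moderate peaks, each nearer to a neighbour. The values were 3.08, 3.24 and 2.38 at mRpS16, next to the zinc finger gene cg (2.90 ± 0.461, SD, n = 3). At mRpL24, next to betaggt-I, which encodes a protein prenylation enzyme, they were 3.04, 2.24 and 3.36 (2.88 ± 0.575, SD, n = 3). At mRpL2, whose bacterial counterpart lies by the peptidyl transferase centre, they were 2.47, 2.70 and 2.05 (2.41 ± 0.328, SD, n = 3). The neighbour of mRpL2 is the forkhead factor gene FoxK, 20 bp from the summit, with mRpL2 at 44 bp. At mRpS2, 185 bp from the summit with Mon1 at 37 bp, the values were 2.53, 1.94 and 2.77 (2.41 ± 0.430, SD, n = 3). At mRpL18 they were 2.05, 2.37 and 1.63 (2.01 ± 0.371, SD, n = 3). The means of these 5 overlap within their SDs, apart from that of mRpS16 against mRpL18. Behind them mRpL20 (next to Icmt) had 2.00 ± 0.475, mRpL44 1.94 ± 0.268, mRpL35 1.79 ± 0.240 and mRpL21 (next to the reptin gene rept) 1.63 ± 0.169 (SD, n = 3 each).

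**Figure D3:**
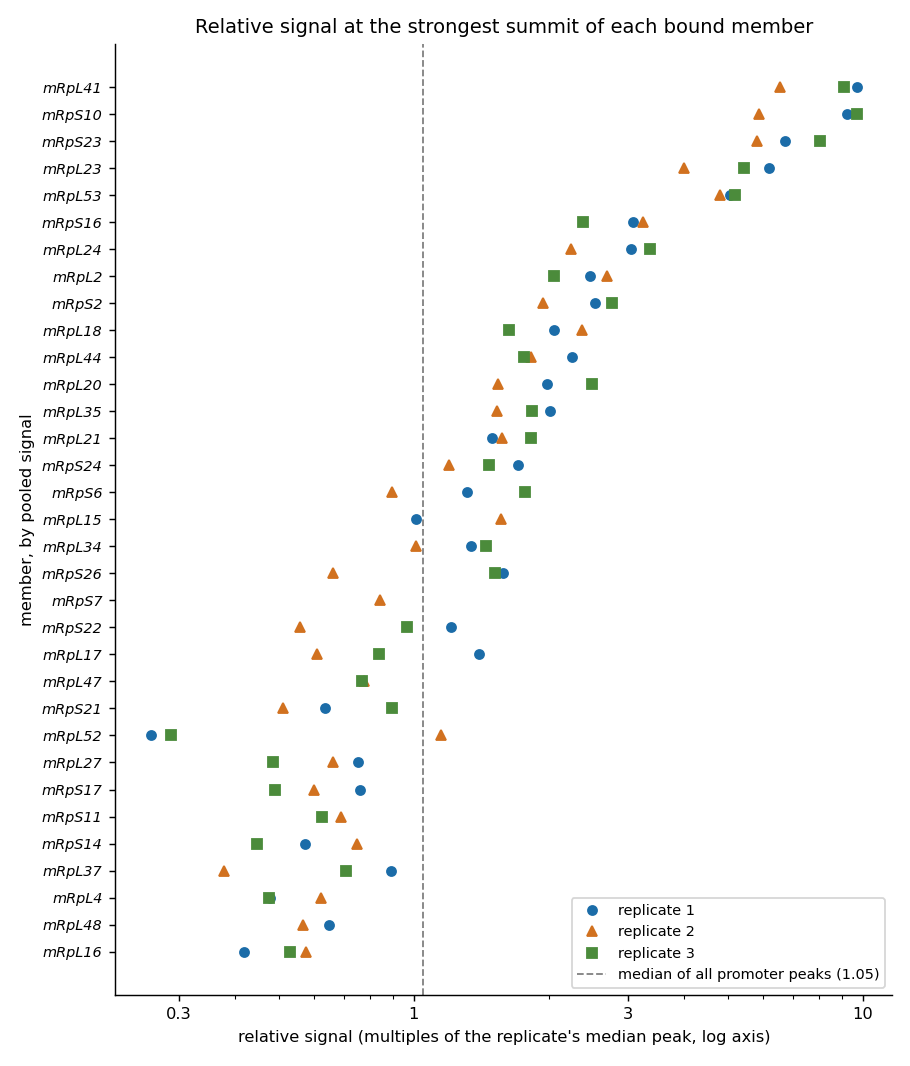
Relative signal of the strongest summit at each of the 33 bound members (log axis, multiples of the replicate's median peak), with 1 point for each replicate that holds the peak; the dashed line is the median of all promoter peaks, 1.05. The 5 members at the top lie at 4.0 or above in every replicate, while mRpL52 is the member whose replicates are farthest apart relative to its mean.

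The members that were themselves nearest to their summit covered the whole range of signal. Besides mRpL41, mRpL23 and mRpL53, these were mRpS6 with 1.31, 0.893 and 1.77 (1.33 ± 0.440, SD, n = 3) and mRpL34, opposite the dystroglycan gene Dg, with 1.34, 1.01 and 1.45 (1.27 ± 0.232, SD, n = 3). At mRpS22 the values were 1.21, 0.557 and 0.963 (0.910 ± 0.329, SD, n = 3). At mRpS11, opposite the nucleostemin gene Ns1, replicates 2 and 3 gave 0.688 and 0.625 (0.656 ± 0.0448, SD, n = 2) and the list of replicate 1 held no matching summit. Replicate 2 was thus the lowest at mRpS6, mRpL34 and mRpS22.

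The lowest means were at mRpL16, mRpL4, mRpL52, mRpS14 and mRpL48. At mRpL16, divergent from the histone methyltransferase gene trr, the values were 0.419, 0.575 and 0.530 (0.508 ± 0.0803, SD, n = 3). At mRpL4, which like mRpL41 had no second gene within 500 bp of its summit, they were 0.479, 0.621 and 0.475 (0.525 ± 0.0833, SD, n = 3). At mRpS14 the values were 0.573, 0.745 and 0.448 (0.589 ± 0.149, SD, n = 3). It has no divergent partner, and its summit lay in the UTR of both mRpS14 and Naa15-16, of an N-terminal acetyltransferase. The summit was 40 bp from the mRpS14 start and 61 bp from that of Naa15-16. All 9 values at mRpL16, mRpL4 and mRpS14 stayed below a median peak. At mRpL48 replicates 1 and 2 gave 0.647 and 0.565 (0.606 ± 0.0582, SD, n = 2). The peak at mRpL52 rested on 1 replicate, with 0.259, 1.15 and 0.288 (0.566 ± 0.507, SD, n = 3), and its mean was 0.273 without replicate 2. At mRpS7, which shares its promoter with Cdk1, only replicate 2 held a matching summit, with 0.842.

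Over the 33 bound members the median of the mean relative signal was 1.28, against 1.11 over all bound genes and 1.06 over all bound genes with a divergent partner. By replicate the members' medians were 1.54, 1.15 and 1.57, where those of all promoter peaks were 1.09, 1.08 and 1.07. The members' medians are over 30, 33 and 30 members in replicates 1 to 3, so they are not over the same members. Those measured in replicate 2 and missing from replicate 1 were mRpL47, mRpS11 and mRpS7, with 0.775, 0.688 and 0.842 in replicate 2. The members' median was nearest to that of all promoter peaks in replicate 2. Whether this follows from which members were measured was not tested. The median of the mean relative signal over bound members was 1.55 without replicate 2. Replicate 2 was the lowest of the 3 at 17 of 30 peaks at members measured in all lists (56.7%), against 38.2% of all such promoter peaks. The coefficient of variation over replicates had a median of 0.198 at members and 0.250 at all promoter peaks. Presence in a replicate means a summit of that list no more than 100 bp away, among its 6793 strongest regions. All 3 replicates held 22 of 35 peaks at members (62.9%) and 63.9% of all promoter peaks. Among the 679 strongest optimal peaks were 8 of 35 at members (22.9%) and 13.4% of all promoter peaks. Counting only peaks present in both other replicates, 23 members were bound without replicate 1, 22 without replicate 2 and 25 without replicate 3, with 19.6%, 20.1% and 20.5% of all genes.

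Both subunits held bound members. In the large subunit 20 of 47 were bound (42.6%), with a median relative signal of 1.46, and in the small subunit 13 of 26 (50%), with a median of 1.25. Without replicate 2, counting only peaks present in both others, the large subunit kept 13 bound members and the small 9. Members with the numbers of bacterial ribosomal proteins, up to 36 in the large and 21 in the small subunit, were bound in 22 of 42 cases (52.4%). Members with higher numbers were bound in 11 of 31 (35.5%). The number is a rough guide to origin, since most higher numbers mark proteins without a bacterial counterpart, but mRpL47 and mRpS24, both bound, belong to families also found in bacteria. The medians were 1.31 with bacterial and 1.25 with higher numbers. Without replicate 2, by the same rule, the counts were 14 and 8. These differences were not tested. A divergent partner was about as frequent in both kinds, at 76.2% and 77.4%. By chromosome, 2 of 11 members were bound on X, 7 of 12 on 2L, 7 of 12 on 2R, 8 of 17 on 3L and 9 of 21 on 3R (18.2%, 58.3%, 58.3%, 47.1% and 42.9%). Over all genes the shares on these chromosomes were 27.0%, 25.7%, 24.9%, 27.4% and 27.1%. The members' share was thus below that of all genes on X and above it on the other 4, on few genes each.

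Of the 40 members without an optimal summit, 20 (50%) had a region of the pooled permissive list within 500 bp of a start. Among all genes without an optimal summit this share was 27.8%. With a divergent partner it was 12 of 25 such members (48.0%) and 36.6% of all such genes. Without a partner it was 8 of 15 (53.3%) and 24.6%, and these differences were not tested. The permissive list holds 30000 regions and by the authors' record includes background. The strongest of these regions was at mRpS18B, with a pooled signal of 139.3, just under the lowest signal in the optimal set, 141.8. The weakest bound member, mRpL16, stood just above it at 147.5. Next came mRpL32 at 120.6, mRpS25 at 116.0, mRpS31 at 102.4 and mRpS5 at 89.7. The region at mRpS25 lay 457 bp from its start, and the others between 33 and 149 bp.

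The replicate lists gave a partly different set of weak regions. A region in each of the 3 replicate lists lay at 5 of the 40 unbound members (12.5%) and at 10.7% of all unbound genes. These were mRpL11, mRpL12, mRpL32, mRpS5 and mRpS18B, of which mRpL11 had no pooled region. So 4 of the 20 members with a pooled region had one in every replicate list, against 36.2% of all unbound genes with a pooled region. At mRpL11, whose values are given after they were seen, the relative signals were 0.838, 0.520 and 0.631, all below a median peak. At mRpS18B the relative signals were 0.735, 0.314 and 0.720, and at mRpL32 0.491, 0.388 and 0.746. At mRpS5 they were 0.329, 0.191 and 0.478. Replicate 1 alone held a region at mRpS25, with 0.446, and replicates 2 and 3 held one at mRpS31, with 0.230 and 0.420. The other 15 members with a pooled region were mRpL9, mRpL12, mRpL13, mRpL14, mRpL19, mRpL22, mRpL28, mRpL36, mRpL42, mRpL49, mRpL50, mRpL51, mRpL54, mRpL55 and mRpS18A, with pooled signals between 37.4 and 89.0. In no list was there a region at 6 members (15.0%), namely mRpL10, mRpL39, mRpL40, mRpL45, mRpL46 and mRpS34, against 45.5% of all unbound genes. The strongest pooled signal had a median of 72.8 over the 20 members and 69.0 over all unbound genes with a region.

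**Figure D4:**
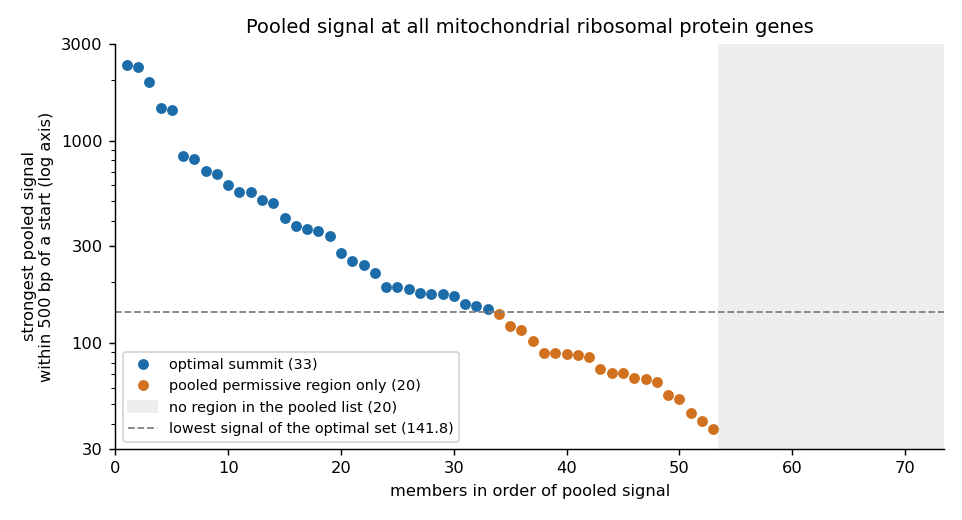
Strongest pooled signal within 500 bp of a start for the members in descending order (log axis); blue points have an optimal summit (33), orange points a pooled permissive region only (20), and the grey area stands for 20 members with no pooled region. The signals fall without a gap across the lowest value of the optimal set, 141.8 (dashed line), from mRpL16 at 147.5 to mRpS18B at 139.3.

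Short sequence motifs known from fly promoters were counted within 100 bp of the 35 summits, on both strands and with overlaps between motifs allowed. The palindrome to which NRF-1 binds was at 0 of 35 peaks at members and at 1.31% of all promoter peaks. With at most 1 mismatch it was at 1 peak, that of mRpS14 (2.86%), and at 9.92% of promoter peaks. TGCGCA, an arm of the longer form of this palindrome, was at 3 peaks, those of mRpS16, mRpS26 and mRpL21 (8.57%), and at 17% of promoter peaks. The DNA replication-related element TATCGATA was near 2 summits, of mRpL16 and mRpL53 (5.71%), and near 6.77% of promoter peaks. Motif 1, GGTCACACT, was near 3 summits, of mRpL48, mRpS16 and mRpS21 (8.57%), and near 4.76%. GAGAG, read by the GAGA factor, was near 4 summits (11.4%) and 30.3% of promoter peaks. The E-box CAGCTG was near 7 summits (20%) and 15.1%. Counts this small move with the window, and a match is a description of the letters, not of a bound site.

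Whole promoters were searched for the same motifs, and the E-box is given first. From 250 bp before to 50 bp after the outermost start, CAGCTG was in 40 of 73 members (54.8%) and in 17.7% of all genes. Among genes with a divergent partner it was in 53.6% of members and 21.7% of all. Among bound members 17 of 33 held it (51.5%), and among unbound ones 23 of 40 (57.5%). It was 57.4% in the large and 50% in the small subunit. The centre of the nearest site lay a median of 19 bp from the start in members and 44 bp in all genes with a site. Within 100 bp of the start were 38 of 40 in members (95.0%) and 69.1% in all genes. In the 17 bound members with a site, the nearest one lay a median of 111 bp from the strongest summit, with a range of 29 to 366 bp. In a narrower window, chosen after seeing the data, 35 members (47.9%) and 9.34% of all genes held a site within 50 bp on either side of the start.

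**Figure D5:**
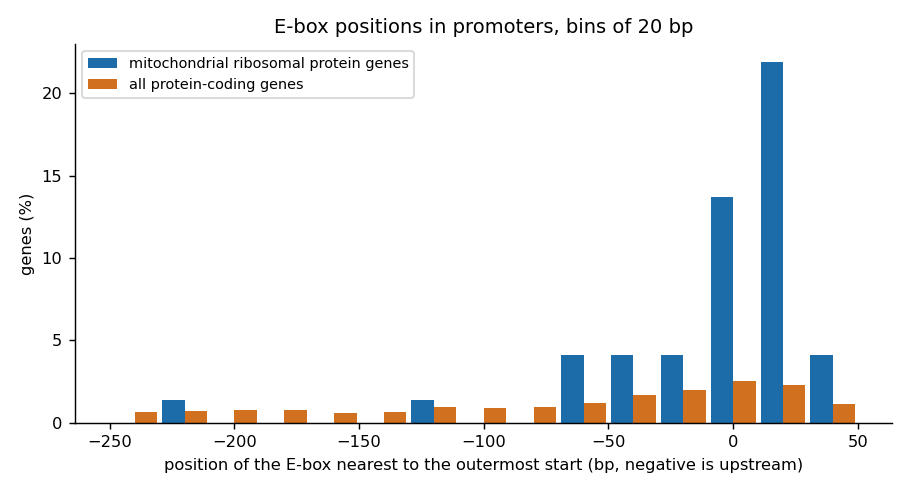
Position of the E-box nearest to the outermost start, in bins of 20 bp from 250 bp upstream to 50 bp downstream, as a percentage of all 73 members (blue) or all 13945 protein-coding genes (orange). Members reach 13.7% in the bin around the start and 21.9% in the next one downstream, where all genes have 2.52% and 2.28%.

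The letters of these sites are shown for members on both sides of the peak threshold, read 5′ to 3′ on the member's strand on dm6, with the motif in capitals. 
mRpL55, unbound, E-box 17 bp after the start (chr3R:19094874-19094903, minus strand): cggtcacactatCAGCTGcctggcagcaaa
mRpL2, bound, E-box 13 bp after the start (chr3L:11120845-11120874, plus strand): aacgccgcgtaaCAGCTGttttcagccgca
mRpL23, bound, E-box 25 bp before the start (chr3L:2373715-2373744, minus strand): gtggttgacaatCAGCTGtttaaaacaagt
mRpL16, bound, TATCGATA (chrX:1890213-1890242, plus strand): aatcggtggtcTATCGATAtatgtttttag
mRpS26, bound, TGCGCA 21 bp from the summit (chr3L:18106319-18106348, plus strand): acattcataaccTGCGCAatttaattgcaa
mRpL48, bound, motif 1 on the other strand, 6 bp from the summit (chr2L:1710432-1710460, plus strand): cgcttgagccAGTGTGACCatggagccgg
The site at mRpL2 follows the end of its run above. In promoters, TATCGATA was in 15 members (20.5%) and 9.37% of all genes, and in 16.5% of genes with a divergent partner. GGTCACACT was in 8 (11.0%) and 6.05%, and in 10.8% of genes with a partner. GAGAG was in 12 members (16.4%) and 29.8% of all genes, and in 22.8% of genes with a partner. TGCGCA was in 6 (8.22%) and 6.98%. The NRF-1 palindrome was in 0 members and 0.258% of all genes, and with at most 1 mismatch in 2 members (2.74%) and 2.67%.

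Other genes of mitochondrial translation were read from a list of 32 symbols, of which 11 matched no symbol of the annotation and 1 was a member. Of the other 20, which include Mtpalpha, a fatty acid oxidation gene listed in error, 4 were bound, or 20%, which is below the 26.4% of all genes. Each of the 4 was itself the gene nearest to its summit, as were 77.5% of all bound genes. At mEFTs, the mitochondrial elongation factor Ts, the relative signals were 4.06, 4.78 and 2.93 (3.92 ± 0.933, SD, n = 3). At mTerf5, of the mitochondrial transcription termination factor family, they were 1.48, 1.88 and 1.75 (1.70 ± 0.202, SD, n = 3). At tko, which encodes the mitochondrial ribosomal protein S12 under a name outside the rule, they were 0.929, 1.37 and 0.451 (0.916 ± 0.458, SD, n = 3). At mtTFB1 replicates 1 and 2 gave 1.76 and 1.38 (1.57 ± 0.268, SD, n = 2). Without replicate 2, counting only peaks present in both others, the number of bound genes fell to 2. The mean at mEFTs lies between those of mRpL53 and mRpS16.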

How the data were processed

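The labels describe 3 biological replicates of GFP-tagged Ewg chromatin immunoprecipitation in 1 group. Per the file records deposited beside the samples, the authors made a permissive peak list per replicate and for the pooled replicates (30000 regions each, of which 29999 in replicate 1 lay on the chromosomes used, X, 2L, 2R, 3L, 3R and 4), each against a control alignment, and an optimal set thresholded by irreproducible discovery rate. Which aligner and peak caller made them is not given in the sources used here. For each peak, the deposited signal is the authors' value, whose scale differs between lists, and summits were placed with the offset deposited for each interval. The lists used give peaks without read counts. Library depth is therefore unknown, and intervals from counts cannot be formed. Lists on dm3 were not used here. The neighbour of 1 bound member is not reported here.

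Protein-coding genes came from Ensembl release 115 and sequence from the RefSeq copy of the same assembly (dm6). Non-coding genes were not used. Distances are from the summit to the nearest of all transcript starts. A replicate's signal at a peak is that of the nearest summit within 100 bp. The steps were checked on simulated data, using Python 3.11.15 with numpy 2.4.6, pandas 2.3.3 and matplotlib 3.10.9. No test was made, since 1 group holds no contrast, and shares of genes are not replicated values. Alternatives changed the distance, the starts, the gene assigned, the threshold, the replicates, the matching and the motif window. The members, lists and motifs were chosen with earlier results of these data known. The rule for values in full took members nearest to their summit, the 10 highest and 5 lowest mean relative signals and the 5 strongest unbound members with a pooled region, and any other member is named for its place. The promoter search for CAGCTG was described further after its count was seen.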

Additional observations from a re-analysis of the deposited data

How the results depend on the processing

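Of 98 alternatives to the main counts and medians, 65 left them within 1.5 times, or the median within the spread between replicates. Counting only the nearest gene, the bound members went from 33 to 10 (large subunit 6, small 4, bacterial numbers 7, higher numbers 3). With the 3396 strongest peaks there were 20 (12, 8, 14 and 6) and 2206 of all genes. With the pooled permissive list there were 53 (35 in the large subunit, 34 with bacterial and 19 with higher numbers), 6529 of all genes and 11 other genes of mitochondrial translation. Leaving out 1 replicate at a time counted only optimal peaks present in both others, a stricter rule than that of the main count. This gave 22 to 25 bound members, 13 to 15 in the large subunit and 14 to 17 with bacterial numbers. Other genes of mitochondrial translation numbered 2 to 4. The median relative signal without 1 replicate was 1.17 to 1.55 against 1.28. Requiring a region in each replicate list in place of the pooled list gave 5 unbound members in place of 20, and 4 of the 5 were among those 20. Within 50 bp of the summit, the palindrome with at most 1 mismatch was at 0 peaks at members, TATCGATA at 0, GGTCACACT at 1, GAGAG at 0 and CAGCTG at 3. Within 250 bp these were 3, 6, 7, 14 and 18, and TGCGCA was at 5. These counts follow the width of the window or the size of the list by construction. Among 140 alternative values for the 28 members measured in 3 replicates, 138 lay within 1 SD of the main value. Those of mRpL21 (1.42) and mRpL53 (4.38) did not when divided by the median of promoter peaks. The values without 1 replicate had to lie within 1 SD, since leaving out 1 of 3 values cannot move their mean that far. Of the settings that could differ, 26 of 28 values lay within 1 SD with the promoter median. With the strongest overlapping region 28 of 28 did. Alternatives chosen after seeing the data gave 35 to 41 members with CAGCTG in other promoter windows, and 8 to 12 members nearest to the summit of a single replicate list. No paired analysis was possible because there is 1 group. With unknown depth, a missing region does not show missing binding, and the resolution of sonicated chromatin limits which of 2 close starts a summit belongs to.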
